A study of Mus musculus with 62 samples.

Results

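The Tribbles pseudokinases are a family of 3 genes, Trib1, Trib2 and Trib3, out of 18821 genes listed in at least 1 of the count tables of this series. Trib1 was chosen by its measured level in the liver, which was already high at the lowest dose and no higher at the highest. Trib2 and Trib3 were added as its family members, by Entrez identifier. Each of the 3 passed the filter on low counts in all tissues measured: liver, prefrontal cortex and striatum.

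The series holds RNA sequencing of 62 libraries from female mice of the inbred C57BL/6 strain. They were given by mouth the MARBLES mixture, a blend of polychlorinated biphenyls (PCBs, persistent industrial chemicals), at 0.1, 1 or 6 mg/kg, or vehicle alone, which is the dose of 0. In order of rising dose from vehicle, the liver has 4, 4, 6 and 6 libraries and each brain region has 4, 5, 6 and 6. Each library carries an animal number in its title, used here as its name. The ages of the mice, the length of dosing and the hour of tissue collection are not given in the sources used here. Nothing states that libraries of a group came from separate cages or litters, so p-values measure the spread between these libraries.

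Tribbles proteins carry a kinase fold with little or no catalytic activity and act as scaffolds. Their C-terminal tail recruits the ubiquitin ligase COP1, and the pseudokinase domain of TRIB1 and TRIB2 holds C/EBP alpha, a transcription factor of hepatocytes and myeloid cells, so that it is degraded. The tail region also binds MEK1, a kinase of the MAP kinase cascade. TRIB1 is known in the liver for its link to plasma lipids, TRIB2 as an oncogene of myeloid leukaemia, and TRIB3 as a stress-inducible protein that binds AKT and is switched on by the transcription factors ATF4 and CHOP.

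Trib1 (Entrez 211770) lies at chr15:59648654-59657099 on the plus strand of GRCm38 and has 3 exons. Trib2 (Entrez 217410) lies at chr12:15791725-15816962 on the minus strand, also with 3 exons. Trib3 (Entrez 228775) lies at chr2:152337425-152344060 on the minus strand, with 4 exons. Counts are per gene, so they do not say which exon or end of the transcript was read.

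Total counts per library ran from 7381179 to 10203247 in the liver, from 8722232 to 12135200 in the prefrontal cortex and from 8283032 to 12019651 in the striatum. The 6 hepatocyte markers summed to between 74520 and 163100 CPM (counts scaled to the same total in each library) in the liver, and in the brain libraries to at most 1.46 CPM. The 6 neuron markers summed to at least 5102 CPM in the prefrontal cortex and 3029 CPM in the striatum. Some striatal libraries held far more of 6 cortical markers than others, from 65.96 to 1746 CPM, and the prefrontal cortex libraries held between 728 and 2325 CPM of 6 striatal markers. In the liver, vehicle animals 3 and 4 stood apart from all others in the clock genes. These values are given again beside the results they touch.

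In vehicle animals Trib2 was higher in the brain than in the liver and Trib3 was higher in the liver than in the brain. Within the liver, vehicle levels per kilobase of transcript were 4.37 CPM for Trib1, 4.35 CPM for Trib3 and 0.910 CPM for Trib2. Trib1 and Trib3 were thus level with each other per kilobase, and Trib2 was the lowest. Before division by length Trib1 was at 18.9 CPM and Trib3 at 8.80 CPM, so the first of these depends on that scaling. Within the prefrontal cortex, vehicle levels per kilobase were 13.9 CPM for Trib2, 6.22 CPM for Trib1 and 0.348 CPM for Trib3. The striatum had the same order, with 13.3 CPM per kilobase for Trib2, 4.80 CPM for Trib1 and 0.520 CPM for Trib3.

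Between tissues, vehicle libraries were compared after scaling both tissues together. Trib2 was 7.96-fold lower in the liver than in the prefrontal cortex, at 5.71 ± 0.918 against 45.6 ± 6.10 CPM (SD, n = 4 each), a log2 difference of -2.99 (SE 0.164, edgeR adjusted p = 5.188e-10). Against the striatum it was 7.29-fold lower, with a log2 difference of -2.87 (SE 0.158, edgeR adjusted p = 1.052e-09). No vehicle liver library reached the Trib2 level of any vehicle brain library. The share of all genes separated between tissues in this way was not counted.

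Trib3 went the other way. It was 22.5-fold higher in the liver than in the prefrontal cortex, at 13.2 ± 1.92 against 0.553 ± 0.380 CPM (SD, n = 4 each), a log2 difference of 4.49 (SE 0.332, edgeR adjusted p = 1.341e-08). Against the striatum it was 16.6-fold higher, with a log2 difference of 4.05 (SE 0.296, edgeR adjusted p = 1.92e-08). Such differences were common, since 84.9% of 13838 genes passed in the first of these comparisons and 83.7% of 13971 genes in the second.

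The order of Trib1 between liver and brain was not settled. Scaled within each tissue, its vehicle level was 18.9 ± 1.56 CPM in the liver and 26.9 ± 3.59 CPM in the prefrontal cortex (SD, n = 4 each). Scaled together, the same libraries gave 28.3 ± 2.22 and 21.1 ± 2.92 CPM, so the direction flips with the scaling. The vehicle livers took part in the choice of Trib1, and no test is given for them. Between the brain regions, Trib1 was at 20.1 ± 8.83 CPM in the striatum and 27.4 ± 3.66 CPM in the prefrontal cortex, a log2 difference of -0.45 (SE 0.270, edgeR adjusted p = 0.271). Without animal 8 the log2 difference was -0.75 (edgeR adjusted p = 0.0368). The striatal library of animal 8 held 1190 CPM of the cortical markers, where those of animals 3, 4 and 7 held 336.9, 77.45 and 403.5 CPM. The vehicle prefrontal cortex libraries held from 897.8 to 2325 CPM of the striatal markers. Trib2 had a log2 difference of -0.14 between these regions (SE 0.108, edgeR adjusted p = 0.405). Trib3 did not pass the filter on low counts there. Of the genes tested between the brain regions, 22.2% passed.

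**Figure D1:**
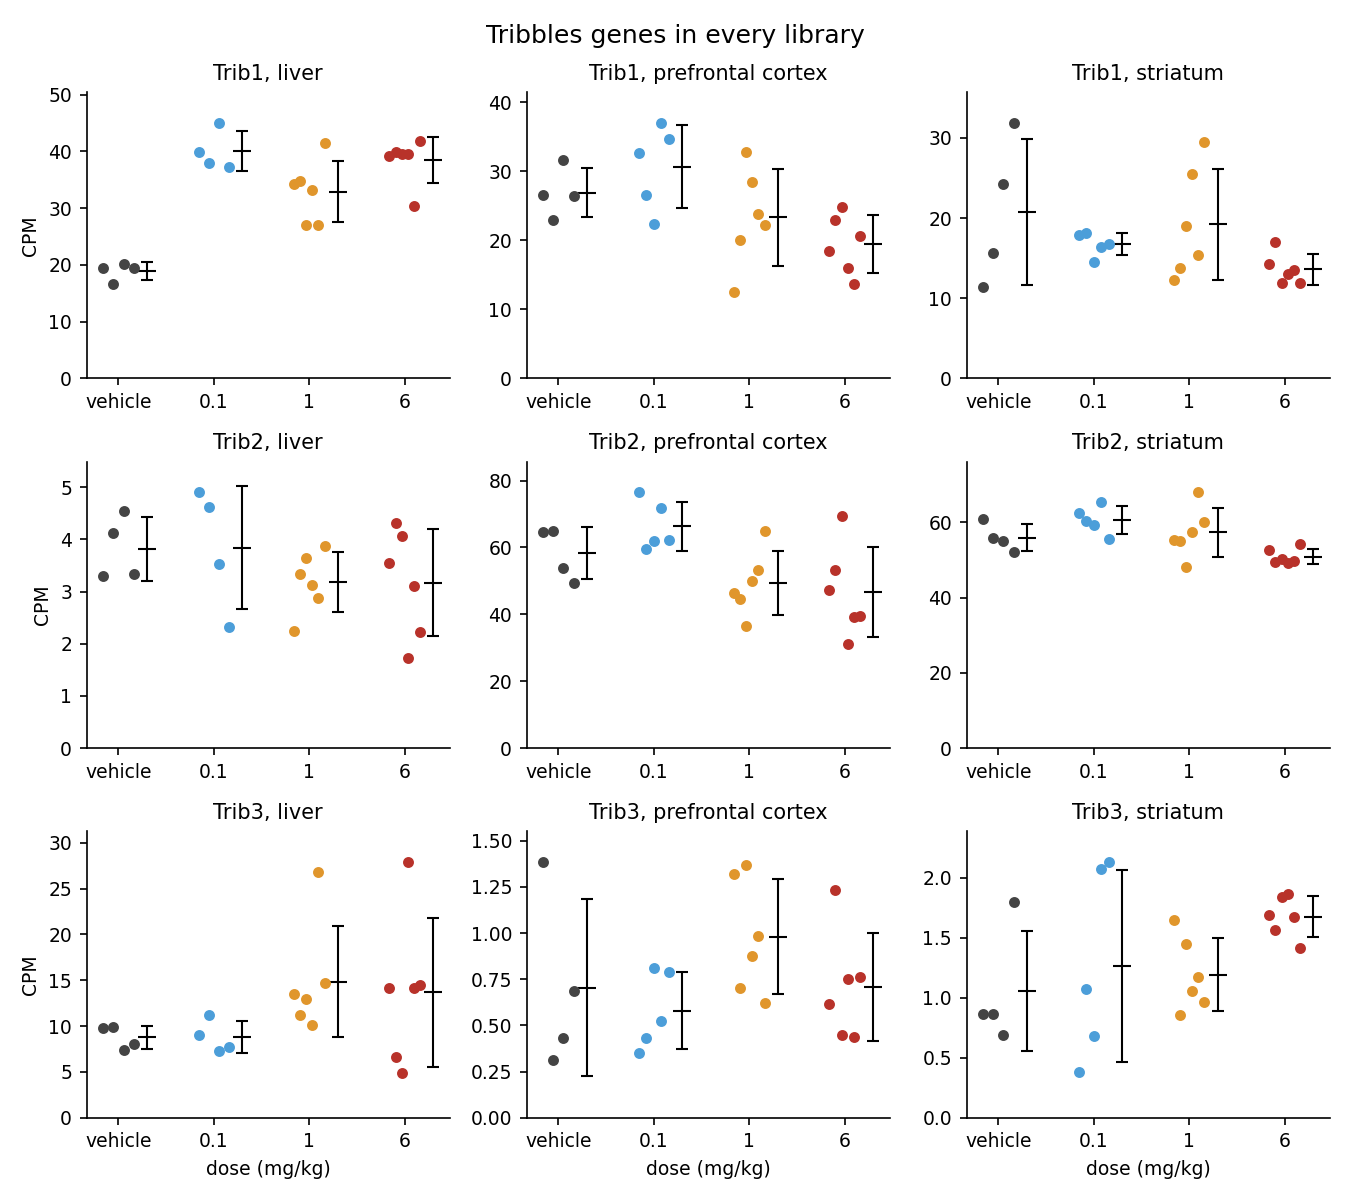
Each point is 1 library, in CPM scaled within its tissue, by dose in mg/kg, with the mean and SD of the group beside the points. Liver Trib1 is the panel in which the vehicle libraries, at 16.6 to 20.2 CPM, lie below every dosed library.

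Liver Trib1 was near one level in vehicle and near another at every dose. The vehicle livers held 19.5, 16.6, 20.2 and 19.4 CPM in animals 3, 4, 7 and 8, which came from 163 to 201 counts. At 0.1 mg/kg animals 23, 25, 28 and 29 held 39.97, 37.9, 45.1 and 37.3 CPM, with no overlap with vehicle. The lowest of these 4 livers stood 17.2 CPM above the highest vehicle liver.

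Liver Trib1 at 1 mg/kg ran from 26.99 to 41.4 CPM with a median of 33.7, and at 6 mg/kg from 30.4 to 41.8 CPM with a median of 39.6. Both groups lay wholly above vehicle. Within the 6 mg/kg group 5 livers fell between 39.3 and 41.8 CPM and only animal 56, at 30.4 CPM, was lower. The 1 mg/kg group was the most spread, with animals 45 and 48 both at 26.99 CPM.

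These are the values by which Trib1 was chosen, and they are given as a description with no test. The fitted log2 fold change over vehicle was 1.08 (SE 0.155) at 0.1 mg/kg, 0.80 (SE 0.144) at 1 mg/kg and 1.02 (SE 0.145) at 6 mg/kg. The last corresponds to a fold of 2.03, and the log2 difference between 6 and 0.1 mg/kg was -0.06 (SE 0.139). As background, of 12968 liver genes the dosed group lay wholly above vehicle for 2.14% at the lowest dose, 0.848% at the middle dose and 3.26% at the highest. The adjusted p was under 0.05 for 0.0154%, 0% and 2.8% of these genes.

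The 5 genes whose log2 CPM followed liver Trib1 most closely over the 20 livers were Ciart (Pearson r 0.847), Usp2 (0.833), Tef (0.827), Dbp (0.818) and Ngef (0.818). Ciart encodes a repressor of the circadian clock, Tef and Dbp encode PAR bZIP transcription factors that are classical clock outputs, Usp2 encodes a deubiquitinase with a daily rhythm, and Ngef encodes an exchange factor of small GTPases. All of these are correlations over libraries that share the split of vehicle from dose. They describe these livers, and no p is given.

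The likeness was not equal at every dose. Ciart averaged 2.02 ± 1.54 CPM in vehicle (SD, n = 4), 16.8 ± 4.38 at 0.1 mg/kg (SD, n = 4), 8.04 ± 5.76 at 1 mg/kg (SD, n = 6) and 14.9 ± 9.30 at 6 mg/kg (SD, n = 6). Usp2 averaged 5.99 ± 1.56, 29.9 ± 14.7, 15.7 ± 7.19 and 22.1 ± 6.05 CPM in the same groups. Among the dosed groups both had their highest mean at 0.1 mg/kg and the lowest at 1 mg/kg, as had Trib1, with means of 40.1, 32.9 and 38.4 CPM over the rising doses. The other 3 genes had their highest mean at 6 mg/kg. Tef averaged 91.9 ± 29.2 CPM in vehicle, then 211.1, 163.1 and 245.6 CPM over the rising doses. Dbp averaged 99.4 ± 68.2 CPM in vehicle, then 281.7, 271.7 and 317.8 CPM. Ngef averaged 28.7 ± 9.39 CPM in vehicle, then 50.5, 48.7 and 63.9 CPM. All 5 had their lowest dosed mean at 1 mg/kg.

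A clock index, the log2 CPM of Dbp minus that of Arntl (the core clock activator, which peaks opposite to Dbp), showed how the livers were placed. It was 2.05 and 2.49 in vehicle animals 3 and 4, 5.19 and 5.45 in vehicle animals 7 and 8, and from 5.76 to 8.60 in the dosed livers. Among the vehicle animals Trib1 was 19.5 and 16.6 CPM in the pair with the low index and 20.2 and 19.4 CPM in the pair with the higher one. With only animals 7 and 8 as vehicle, the log2 fold change of Trib1 was 1.02 (SE 0.204) at 0.1 mg/kg, 0.72 (SE 0.193) at 1 mg/kg and 0.96 (SE 0.195) at 6 mg/kg. With the clock index as a covariate it was 0.94 (SE 0.213), 0.63 (SE 0.224) and 0.84 (SE 0.234). The slope of Trib1 over dose rank was 0.24 log2 per step (SE 0.0703), and 0.082 (SE 0.0845) with this covariate. No vehicle liver had an index within the range of the dosed livers, so clock state and dose cannot be told apart beyond this.

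**Figure D2:**
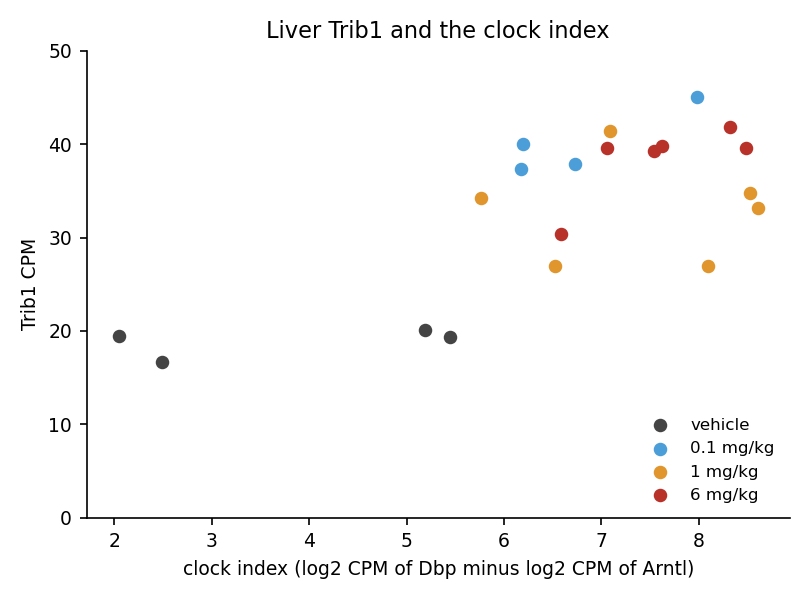
Each point is 1 liver, with the clock index (log2 CPM of Dbp minus log2 CPM of Arntl) on the horizontal axis and Trib1 in CPM on the vertical axis, coloured by dose. The 4 vehicle livers lie at or below 20.2 CPM, at indices from 2.05 to 5.45, and all dosed livers lie at or above 26.99 CPM, at indices from 5.76 up.

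Markers of Kupffer cells, the resident macrophages of the liver, had higher sums in most dosed livers than in vehicle. In bulk tissue, more cells of a type and more RNA per cell cannot be told apart. The 6 markers summed to between 121.1 and 200.7 CPM in vehicle. The range was 205.1 to 286 CPM at the lowest dose, 175.3 to 345.1 CPM at the middle one and 168.4 to 347.8 CPM at the highest. At 6 mg/kg 2.8% of all liver genes passed, and 1 of the 6 markers rose: Clec4f, a lectin specific to Kupffer cells, from a vehicle level of 63.95 ± 14.2 (SD, n = 4) to 121.8 ± 38.4 CPM (SD, n = 6; log2 fold change 0.93, SE 0.226, edgeR adjusted p = 0.0333). With the marker sum as a covariate, liver Trib1 had log2 fold changes of 1.06 (SE 0.178), 0.77 (SE 0.165) and 0.99 (SE 0.174) over the rising doses. The 6 lymphocyte markers were low, with sums of 3.27 to 3.97 CPM in vehicle, 3.62 to 7.68 CPM at the lowest dose, 5.35 to 12.9 CPM at the middle one and 5.22 to 14.4 CPM at the highest. Of the 3 that passed the filter on low counts, 1 rose at 6 mg/kg. Neutrophil markers had median sums of 2.31 CPM in vehicle and 5.66 CPM at 6 mg/kg, with at most 12.4 CPM in any liver and with Ly6g and Mpo not listed. Of the 2 tested, 0 passed. The 6 endothelial and stellate markers had median sums of 363.4 CPM in vehicle and 248.9 CPM at 6 mg/kg, in overlapping ranges, and 0 of 6 passed. The part of these other cell types in liver Trib1 was not tested.

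Trib3 is the stress-inducible member, and the first stretch of its transcript is shown because letters there match a motif of the pathway known for the gene. The letters below, which begin at base 4 of the transcript, are from RefSeq GRCm38.p6, chr2:152344028-152344057, read 5′ to 3′ on the minus strand, the strand of the gene. The capitals mark bases 14 to 22 of the transcript, which on the opposite strand read TGATGTAAA, a match to TGATGNAAN, the composite element bound by C/EBP and ATF proteins.
Trib3: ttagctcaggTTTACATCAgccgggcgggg

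Searched on both strands, TGATGNAAN was in 3.95% of 32851 RefSeq windows that run from 250 bases before to 50 bases after a start. The Trib3 window held it and the Trib2 window did not. Trib1 was not searched here. CACGTG, the E-box of clock activators, was in 7.15% of the windows and in neither of these. A match is a description of the letters and no measure of binding.

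Liver Trib3 in vehicle was 9.78, 9.95, 7.39 and 8.10 CPM in animals 3, 4, 7 and 8. At 0.1 mg/kg it was 9.02, 11.2, 7.33 and 7.75 CPM in animals 23, 25, 28 and 29. These groups covered the same range, and the log2 fold change was 0.0025 (SE 0.385, edgeR adjusted p = 1).

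Liver Trib3 at 1 mg/kg ran from 10.1 to 26.8 CPM with a median of 13.2, and all 6 livers lay above all 4 vehicle livers, the nearest by 0.149 CPM, where the same held for 0.848% of liver genes. At 6 mg/kg it ran from 4.88 to 27.9 CPM with a median of 14.2, and the groups overlapped. Here 4 of 6 livers were above the vehicle mean, animals 53 and 54 were below every vehicle liver at 6.60 and 4.88 CPM, and animal 55 was the highest. The log2 fold change was 0.76 (SE 0.353, unadjusted p = 0.0439, edgeR adjusted p = 0.581) at 1 mg/kg and 0.64 (SE 0.353, edgeR adjusted p = 0.263) at 6 mg/kg. Without animal 48 the value at 1 mg/kg was 0.50, and without animal 55 the value at 6 mg/kg was 0.31. With the clock index as a covariate the values were 1.27 (SE 0.578) and 1.15 (SE 0.572), and with the GC slope, the correlation across genes of a library's deviation with GC content, 1.11 (SE 0.436) and 1.04 (SE 0.459), none of them past the threshold. The slope over dose rank was 0.26 log2 per step (SE 0.113, unadjusted p = 0.029, edgeR adjusted p = 0.150), where 4.81% of liver genes passed. By edgeR 0% of liver genes passed at 1 mg/kg, against 1095 at an unadjusted p under 0.05 and 21 by DESeq2.

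Trib3 was highest in the livers of animal 48, at 26.8 CPM, and animal 55, at 27.9 CPM. Of 14 genes of the integrated stress response, the pathway that runs through ATF4, 12 were measured in the liver. For Chac1, a glutathione-degrading enzyme, animal 48 ranked 2 and animal 55 ranked 6 from the top of the 20 livers. For Atf4 itself animal 48 ranked 17 and animal 55 ranked 14 from the top of 20. Over the 20 livers the correlation with Trib3 was above 0 for 4 of the 12 genes and highest for Chac1 (Pearson r 0.315). Among the genes closest to liver Trib3 were Slc8b1, a mitochondrial sodium and calcium exchanger (Pearson r 0.842), Rnf152 (0.755), Jmjd4 (0.731) and Cyp4a32 (0.722).

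Liver Trib2 was low in all groups. It was 3.29, 4.11, 4.54 and 3.34 CPM in vehicle, from 28 to 43 counts, and 4.90, 4.62, 3.52 and 2.31 CPM at 0.1 mg/kg. At 1 mg/kg it ran from 2.25 to 3.88 CPM with a median of 3.23, and at 6 mg/kg from 1.74 to 4.32 CPM with a median of 3.33. All groups overlapped. The log2 fold change was 0.0044 at 0.1 mg/kg (SE 0.302, edgeR adjusted p = 1), -0.27 at 1 mg/kg (SE 0.278, edgeR adjusted p = 0.784) and -0.27 at 6 mg/kg (SE 0.277, edgeR adjusted p = 0.566). With the GC slope as a covariate the values at 1 and 6 mg/kg were -0.63 (SE 0.347) and -0.70 (SE 0.375), with the clock index -0.46 and -0.47, and without animal 55 the value at 6 mg/kg was -0.15. None of these passed. Its closest genes were Nme7 (Pearson r 0.755), Zfp251 (0.746), Cinp (0.741), Degs2 (0.723) and Zc2hc1a (0.705). Over the 20 livers, Trib2 and Trib3 had a Pearson r of -0.56, Trib1 and Trib2 of -0.17 and Trib1 and Trib3 of 0.065.

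In the prefrontal cortex Trib1 was lowest at the highest dose. It was 26.6, 22.9, 31.7 and 26.5 CPM in vehicle animals 3, 4, 7 and 8, and 32.7, 26.6, 22.4, 37.1 and 34.8 CPM in animals 23, 24, 25, 28 and 29 at 0.1 mg/kg. At 1 mg/kg it ran from 12.6 to 32.9 CPM with a median of 23.1, and at 6 mg/kg from 13.7 to 24.8 CPM with a median of 19.6. All 6 libraries at 6 mg/kg were below the vehicle mean of 26.9 CPM, but the groups overlapped.

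At 6 mg/kg Trib1 had a log2 fold change over vehicle of -0.47 (SE 0.197, unadjusted p = 0.0247, edgeR adjusted p = 0.465). Between 6 and 0.1 mg/kg the log2 difference was -0.66 (SE 0.184, unadjusted p = 0.00153, edgeR adjusted p = 0.167), and 6 of 6 libraries were below the 0.1 mg/kg mean. The slope over dose rank was -0.20 log2 per step (SE 0.0657, edgeR adjusted p = 0.290), where 0.0202% of genes passed. None passed after adjustment over all genes. In this region 0% of 14838 genes passed at 6 mg/kg by edgeR, where 1376 had an unadjusted p under 0.05 and DESeq2 called 27. Between 6 and 0.1 mg/kg, 0.108% passed. The 6 striatal markers had median sums of 1600 CPM in vehicle and 1774 CPM at 6 mg/kg in these libraries, the 6 cortical markers 2178 and 1902 CPM, and the 6 oligodendrocyte markers 2633 and 3147 CPM. All of these ranges overlapped and 0 of the 18 markers passed, with 3 at an unadjusted p under 0.05. Their part in the values of the members was not tested.

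In the prefrontal cortex, the genes closest to Trib1 included Fos, Arc and Junb. The 5 genes most like Trib1 over the 21 libraries were Csrnp1 (Pearson r 0.882), Irf2bpl (0.876), Fos (0.876), Arc (0.874) and Junb (0.856). Fos, Arc and Junb are immediate early genes, which neurons switch on within minutes of firing, and they were picked here for this correlation. Arc averaged 298.6 ± 45.4 CPM in vehicle (SD, n = 4), 405.7 ± 104.7 at 0.1 mg/kg (SD, n = 5), 203.4 ± 144.7 at 1 mg/kg (SD, n = 6) and 169 ± 77.6 at 6 mg/kg (SD, n = 6). Fos averaged 36.6 ± 2.97, 38.5 ± 10.4, 25.8 ± 13.7 and 22.3 ± 9.28 CPM in these groups. The group means of Trib1, at 26.9, 30.7, 23.4 and 19.5 CPM, had the same order as those of Arc and Fos.

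Trib2 is the most abundant member in the prefrontal cortex and had the same order of group means. It was 64.6, 64.98, 53.9 and 49.4 CPM in vehicle animals 3, 4, 7 and 8, and 76.5, 59.5, 62.1, 71.7 and 62.2 CPM in animals 23, 24, 25, 28 and 29 at 0.1 mg/kg. At 1 mg/kg it ran from 36.4 to 65.02 CPM with a median of 48.3, and at 6 mg/kg from 31.04 to 69.4 CPM with a median of 43.5. Animal 54 was the highest at 6 mg/kg and the other 5 libraries lay between 31.04 and 53.3 CPM, so the groups overlapped.

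At 6 mg/kg Trib2 was -0.32 from vehicle on the log2 scale (SE 0.166, edgeR adjusted p = 0.558). Between 6 and 0.1 mg/kg the log2 difference was -0.51 (SE 0.155, unadjusted p = 0.0031, edgeR adjusted p = 0.222). Without animal 54 that log2 difference was -0.66 (SE 0.140, edgeR adjusted p = 0.0386), which passed. The genes most like Trib2 were Plk3 (Pearson r 0.883) and Bhlhe40 (0.879), both known as inducible early genes, followed by Ccn4 (0.862), Gse1 (0.847) and Ankrd33b (0.847). Trib1 and Trib2 had a Pearson r of 0.54 over the 21 libraries.

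Trib3 was close to the limit of detection in the prefrontal cortex. The vehicle libraries held 16, 3, 4 and 6 counts, or 1.38, 0.315, 0.432 and 0.685 CPM. The dosed libraries held from 3 to 14 counts and overlapped with vehicle at every dose. The log2 fold change at 6 mg/kg was -0.03 (SE 0.420, edgeR adjusted p = 0.987), and without vehicle animal 3 it was 0.57 (SE 0.471, edgeR adjusted p = 0.776). Its closest genes were Oxt (Pearson r 0.754), Zfp57 (0.752), Akip1 (0.724), Tigd3 (0.673) and Rpa3 (0.671), a likeness that rests on these few counts.

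In the striatum Trib1 was unevenly spread in vehicle and low at 6 mg/kg. The vehicle libraries held 11.4, 15.7, 24.2 and 31.9 CPM in animals 3, 4, 7 and 8. At 0.1 mg/kg animals 23, 24, 25, 28 and 29 held 17.9, 18.2, 14.6, 16.4 and 16.8 CPM. Trib1 ran at 1 mg/kg from 12.2 to 29.5 CPM with a median of 17.2, and at 6 mg/kg from 11.9 to 17.02 CPM with a median of 13.3. All 6 libraries at 6 mg/kg were below the vehicle mean, yet vehicle animal 3 was lower than all of them.

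The log2 fold change at 6 mg/kg was -0.61 (SE 0.238, unadjusted p = 0.0174, edgeR adjusted p = 0.243). It was -0.33 without vehicle animal 8. In the striatum the GC slope was from 0.281 to 0.419 at 6 mg/kg and from -0.398 to 0.383 in vehicle. With it as a covariate the log2 fold change was -0.91 (SE 0.224, edgeR adjusted p = 0.239). In the striatum 0% of 15118 genes passed at 6 mg/kg by edgeR, where 2377 had an unadjusted p under 0.05 and DESeq2 called 26.

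The 3 striatal libraries with the most cortical transcripts were also the 3 with the most Trib1, and below them the order differed. The 6 cortical markers, among them Slc17a7 and Tbr1, summed to 336.9, 77.5, 403.5 and 1190 CPM in vehicle animals 3, 4, 7 and 8, and to between 65.96 and 467.2 CPM at 6 mg/kg. The next highest Trib1 values were in animals 50 and 46 at 1 mg/kg, at 29.5 and 25.5 CPM, where the markers summed to 1746 and 925.4 CPM. Animal 48 at 1 mg/kg, with a marker sum of 613 CPM, held 15.4 CPM of Trib1, and animal 52 at 6 mg/kg, with 467.2 CPM, held 14.3 CPM. Vehicle animal 7 was higher than both at 24.2 CPM, with a marker sum of 403.5 CPM. With the marker sum as a covariate, chosen after the data were seen, the log2 fold change at 6 mg/kg was -0.34 (SE 0.192, edgeR adjusted p = 0.315). The genes most like striatal Trib1 were Nptx1 (Pearson r 0.852), Arhgap25 (0.836), Fezf2 (0.828), Frmd6 (0.827) and Dkk3 (0.826). Fezf2, a transcription factor of deep-layer cortical neurons, is itself among the 6 markers. The part of cortical tissue in the Trib1 values was not tested beyond the covariate. The 6 oligodendrocyte markers summed to between 4384 and 6622 CPM in vehicle and between 6602 and 9240 CPM at 6 mg/kg. The 6 neuron markers summed to between 3332 and 3999 CPM in vehicle and between 3029 and 3438 CPM at 6 mg/kg. In these lists 0 passed, with 2 and 1 at an unadjusted p under 0.05, against 15.7% of striatal genes. Of the striatal, astrocyte and microglia markers 0 passed. Their part was not tested.

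**Figure D3:**
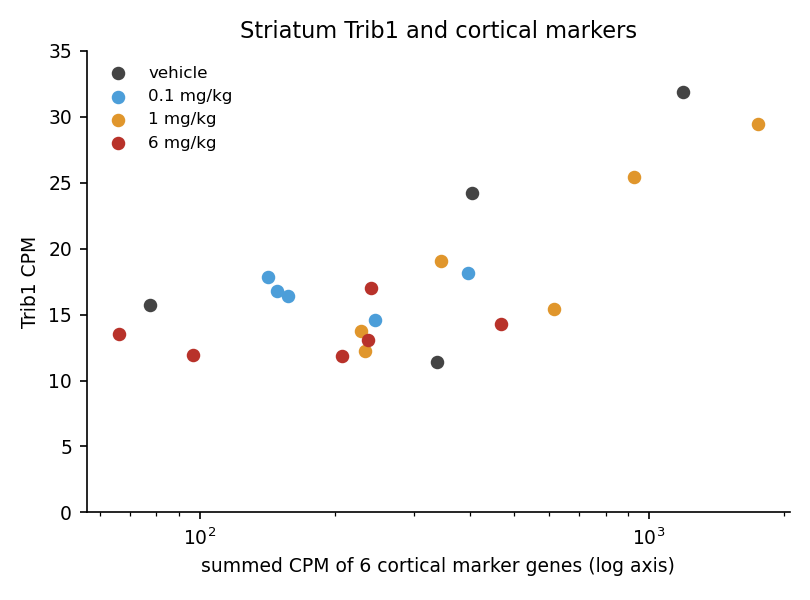
Each point is 1 striatum library, with the summed CPM of 6 cortical marker genes on a log axis and Trib1 in CPM on the vertical axis, coloured by dose. The 3 libraries with sums of 925.4 CPM and above hold from 25.5 to 31.9 CPM of Trib1, and the 6 mg/kg libraries all hold 17.02 CPM or less.

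Striatal Trib2 was the steadiest of the members. It was 60.8, 55.8, 55.02 and 52.2 CPM in vehicle animals 3, 4, 7 and 8, and 62.5, 60.4, 59.2, 65.5 and 55.7 CPM in animals 23, 24, 25, 28 and 29 at 0.1 mg/kg. The 1 mg/kg libraries ran from 48.04 to 67.9 CPM with a median of 56.4, and at 6 mg/kg from 49.2 to 54.1 CPM with a median of 49.9. All 6 libraries at 6 mg/kg lay below all 5 at 0.1 mg/kg, though they overlapped with vehicle. These groups were also apart in GC slope, from -0.308 to -0.0278 at 0.1 mg/kg and from 0.281 to 0.419 at 6 mg/kg. Its part in the Trib2 values was not tested beyond that slope as a covariate.

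Between 6 and 0.1 mg/kg the log2 difference of striatal Trib2 was -0.25 (SE 0.0795, unadjusted p = 0.00395, edgeR adjusted p = 0.0732), which missed the threshold. DESeq2 gave -0.26 with an adjusted p of 0.0331, in a comparison where it called 1098 of 15118 striatal genes. The adjusted p ranged from 0.0331 to 0.987 over all alternatives tried. Of 15118 striatal genes, 3.01% lay without overlap lower at 6 than at 0.1 mg/kg, and 2.91% passed by edgeR in either direction. Against vehicle the log2 fold change at 6 mg/kg was -0.14 (SE 0.0847, edgeR adjusted p = 0.421). Closest to striatal Trib2 were Psmd11, a proteasome subunit (Pearson r 0.808), Cnot4 (0.692), Dcun1d4 (0.691), Zfp773 (0.690) and Mxi1 (0.683).

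Striatal Trib3 was again low. The vehicle libraries held 9, 9, 7 and 18 counts, or 0.860, 0.867, 0.692 and 1.80 CPM. At 0.1 mg/kg animals 23, 24, 25, 28 and 29 held 0.382, 1.08, 0.678, 2.07 and 2.13 CPM. It ran at 1 mg/kg from 0.855 to 1.65 CPM with a median of 1.11, and at 6 mg/kg from 1.42 to 1.86 CPM with a median of 1.68. All 6 libraries at 6 mg/kg were above 3 of the 4 vehicle libraries, and vehicle animal 8 lay within their range. The log2 fold change at 6 mg/kg was 0.67 (SE 0.379, edgeR adjusted p = 0.388), and 1.04 without vehicle animal 8 (SE 0.416, edgeR adjusted p = 0.349). The genes most like it were Gm10767 (Pearson r 0.728), Dhrs11 (0.717), Niban3 (0.703), Tspan4 (0.699) and Fcgrt (0.694).

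**Figure D4:**
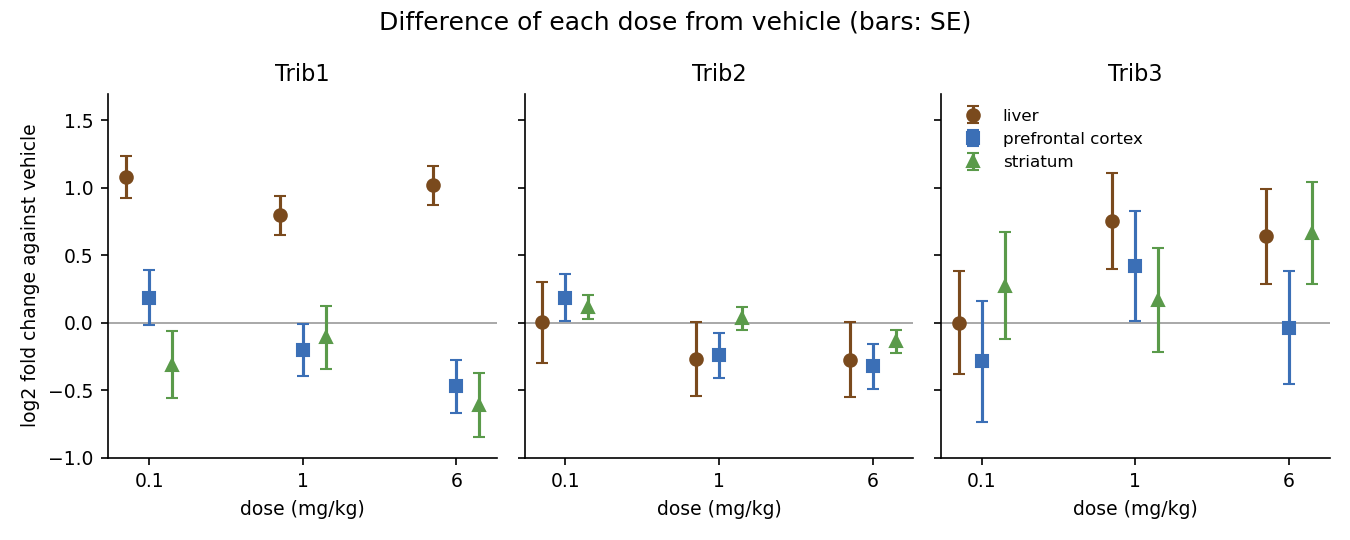
Fitted log2 fold change of each dose against vehicle for each gene, with bars of 1 SE, by tissue. Liver Trib1 lies between 0.80 and 1.08 at every dose, and the brain values of Trib1 at 6 mg/kg are -0.47 and -0.61.

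At the lower doses no member passed in either brain region. Their log2 fold changes at 0.1 and 1 mg/kg ran from -0.31 to 0.42, with edgeR adjusted p-values from 0.612 to 1. Both ends rest on single libraries. The highest, prefrontal cortex Trib3 at 1 mg/kg, was 1.03 without vehicle animal 3 and 0.19 without vehicle animal 4. The lowest, striatal Trib1 at 0.1 mg/kg, was -0.51 without vehicle animal 3 and -0.027 without vehicle animal 8. By edgeR 0% of all genes passed at these doses. At an unadjusted p under 0.05 there were 954 and 1230 genes in the prefrontal cortex and 383 and 1113 in the striatum, and DESeq2 called 1, 0, 1 and 6.

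The effect of 6 mg/kg was also compared directly between tissues. For Trib1 the log2 difference of the effects was 1.48 (SE 0.214) between liver and prefrontal cortex and 1.62 (SE 0.285) between liver and striatum, given with no test because the liver values chose the gene. Between striatum and prefrontal cortex it was -0.15 (SE 0.293, edgeR adjusted p = 0.911). For Trib2 the liver effect differed by 0.03 from that of the prefrontal cortex (SE 0.336, edgeR adjusted p = 0.974) and by -0.15 from that of the striatum (SE 0.256, edgeR adjusted p = 0.810). For Trib3 it was 0.67 (SE 0.677, edgeR adjusted p = 0.608) and -0.03 (SE 0.441, edgeR adjusted p = 0.978). Leaving out single animals moved the first of these to between 0.11 without animal 3 and 1.02 without animal 53. None of these tested differences passed. Over all genes, 0.899% passed when the liver was set against the prefrontal cortex and 0.0277% when it was set against the striatum, or 129 and 4 genes by edgeR and 928 and 134 by DESeq2. Between the 2 brain regions 0% of 15043 genes passed by edgeR, where 967 had an unadjusted p under 0.05 and DESeq2 called 0.

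The lists read here hold 75 genes, of which 73 passed the liver filter on low counts. They cover reported partners and targets of the family, lipid genes, the integrated stress response and the clock. Clock genes are not partners or targets of the family. At 6 mg/kg 5 rose and 1 fell, all of them clock genes, where 2.8% of all liver genes passed. The unadjusted p was under 0.05 for 28 of the 73, against 24.2% of all liver genes, the share to set beside the counts of each list that follows. The clock list, with 14 genes tested, had a median log2 fold change of 0.99 against 0.02 over all liver genes. Its passing genes named here are Tef (log2 fold change 1.42, SE 0.256, edgeR adjusted p = 0.0130), Per3 (2.09, SE 0.388, edgeR adjusted p = 0.0134), Dbp (1.68, SE 0.321, edgeR adjusted p = 0.0134) and Usp2 (1.88, SE 0.366, edgeR adjusted p = 0.0134). The count of 6 fell to 0 without vehicle animal 3, without vehicle animal 4, and with the clock index or the GC slope as a covariate. The clock index is built from Dbp and Arntl, both on the clock list, so that fit is no separate check of the count. The GC slope was from -0.271 to -0.154 in vehicle livers and from -0.016 to 0.232 at 6 mg/kg. With the GC slope as a covariate liver Trib1 had a log2 fold change of 0.99 (SE 0.192). The count was 13 without animal 56, 11 without animal 55 and 13 by DESeq2, which called 1138 of 12968 liver genes.

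The ubiquitin ligase list, through which Tribbles proteins act, had 0 of 9 genes passing, 3 at an unadjusted p under 0.05 and a median log2 fold change of 0.09. Its smallest p belonged to Cop1, the ligase bound by the Tribbles tail, with 39.8 ± 4.98 CPM in the vehicle livers (SD, n = 4) against 28.2 ± 6.31 CPM (SD, n = 6; log2 fold change -0.50, SE 0.177, edgeR adjusted p = 0.101). The C/EBP family had 0 of 6 passing and 1 at an unadjusted p under 0.05, with Cebpg first (log2 fold change -0.47, SE 0.194, edgeR adjusted p = 0.148). Cebpa, the transcript of the protein degraded through TRIB1 and TRIB2, was -0.03 from vehicle on the log2 scale (SE 0.246, edgeR adjusted p = 0.959). RNA counts do not measure the C/EBP alpha protein.

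Of 7 liver genes known to depend on C/EBP alpha, 0 passed and 3 had an unadjusted p under 0.05, with a median log2 fold change of -0.64. Cps1, the first enzyme of the urea cycle, had the smallest p, with 2245 ± 290.3 CPM in the vehicle livers (SD, n = 4) against 1005 ± 592.6 CPM (SD, n = 6; log2 fold change -1.16, SE 0.438, edgeR adjusted p = 0.122). Of 11 genes of lipid synthesis and export, 0 passed, the unadjusted p was under 0.05 for 5, and the median was -0.35. Srebf1, a master regulator of fatty acid synthesis, had the smallest p among them (log2 fold change 1.10, SE 0.394, edgeR adjusted p = 0.106).

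The integrated stress response list had 0 of 12 passing, 3 at an unadjusted p under 0.05 and a median of 0.03, with Eif2ak3, the kinase PERK, first (log2 fold change -0.84, SE 0.243, edgeR adjusted p = 0.0589). The MAP kinase and AKT partners had 0 of 9 passing, 2 at an unadjusted p under 0.05 and a median of -0.07. The other reported partners had 0 of 8 passing and 2 at an unadjusted p under 0.05, with Rara, a retinoic acid receptor, first (log2 fold change 0.58, SE 0.182, edgeR adjusted p = 0.0772).

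Of 63 list genes tested in each brain region, 0 passed in either. The unadjusted p was under 0.05 for 10 of them in the prefrontal cortex, against 9.27% of all genes there, and for 8 in the striatum, against 15.7%. DESeq2 also called 0 in both regions. At 6 mg/kg it gave no adjusted p for 8630 of 14838 genes in the prefrontal cortex and 4690 of 15118 in the striatum. The gene of smallest p in each list, in the prefrontal cortex, was Cop1 (log2 fold change 0.20), Cebpa (-0.30), Map2k7 (-0.20), Acaca (-0.29), Ddit4 (-0.56), Fasn (-0.28) and Per1 (-0.68, edgeR adjusted p = 0.344, the lowest of these). In the striatum, for the lists reported, it was Dda1 (0.22), Cebpa (0.30), Foxo3 (-0.26), Slc7a11 (-0.55, edgeR adjusted p = 0.208, the lowest of these), Srebf1 (0.21) and Clock (-0.37). Cebpa differed from vehicle in opposite directions in the 2 regions, with neither value past the threshold.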

How the data were processed

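Before sequencing, RNA was enriched by poly(A) capture or depleted of ribosomal RNA, per the labels' protocols, which do not say which. The submitters' processing notes name FastQC, HISAT2 and mm10. Which program counted the reads, on which annotation and whether by strand, is not given in the sources used here. The authors deposited 1 table of whole-number counts per gene and tissue, in which the smallest total of a listed gene was 10 counts. Libraries were grouped by the tissue and treatment in their labels and matched to columns by title.

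The model of the counts was edgeR 4.0.16 (R 4.3.3): filterByExpr on the dose groups, TMM scaling, robust quasi-likelihood, all doses of a tissue in 1 fit, two-sided tests, Benjamini-Hochberg adjustment over all genes and a threshold of 0.05. Log2 CPM had a prior count of 2. The fits were tested on simulated data. DESeq2 1.42.0 and other settings were alternatives, including the vehicle animals 7 and 8 alone and the marker sums as covariates, both chosen after seeing the data. GC content came from GENCODE vM21, and names, positions and sequence from RefSeq GRCm38.p6.

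The members and lists were chosen with earlier results of these data known. Trib1 is given with no test wherever liver libraries enter, although a test of its vehicle level had been planned. From each list the rule names up to 4 genes that passed at 6 mg/kg, or else the gene with the smallest p, and for each member the 5 genes with the highest Pearson correlation. Cebpa, Atf4, Chac1 and Clec4f were named outside it, after their values were seen. Some genes that the naming rule gives are not reported here.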

Additional observations from a re-analysis of the deposited data

Results flagged for a closer look

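In 36 groups of libraries, 3 genes in 12 groups of tissue and dose, the highest or lowest library was checked for a gap to the others that is large for the range of its group. Chance flags about 1 in 20 groups, and 3 were flagged.

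Liver Trib1 at 6 mg/kg was 30.4 CPM in animal 56, below the other 5 livers at 39.3 to 41.8 CPM. Liver Trib3 at 1 mg/kg was 26.8 CPM in animal 48, above the other 5 livers at 10.1 to 14.7 CPM. Striatal Trib3 in vehicle was 1.80 CPM in animal 8, above the other 3 libraries at 0.692 to 0.867 CPM. That value came from 18 counts.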

How the results depend on the processing

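The 53 tested values of the members were recomputed 700 times, and 663 kept the direction and the side of the threshold. Signs turned in 34, all of them in comparisons that did not pass. For liver Trib2 at 0.1 mg/kg the log2 fold change was -0.0015 with DESeq2, -0.15 with the clock index as a covariate, -0.083 with the GC slope, -0.041 with animals 7 and 8 alone as vehicle and -0.073 with the Kupffer marker sum. Liver Trib3 at 0.1 mg/kg was -0.0022 with no filter on low counts. Prefrontal cortex Trib3 was 0.13 at 6 mg/kg with the clock index and -0.0091 as a slope over mg/kg. Striatal Trib1 at 1 mg/kg was 0.21 with the GC slope. With the clock index, liver Trib1 moved to 0.94 at 0.1 mg/kg and 0.84 at 6 mg/kg. Its slope over dose rank moved from 0.24 to 0.082. The 9 values of Trib1 given with no test are not in these counts. Striatal Trib2 between 6 and 0.1 mg/kg passed with DESeq2, at -0.26, where DESeq2 called 1098 of 15118 genes.

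Leaving out single libraries gave ranges across 0 for liver Trib2 (-0.13 to 0.18) and Trib3 (-0.13 to 0.083) at 0.1 mg/kg, prefrontal cortex Trib3 at 0.1 mg/kg (-0.52 to 0.32) and 6 mg/kg (-0.27 to 0.57), and striatal Trib1 at 1 mg/kg (-0.31 to 0.17), Trib2 at 1 mg/kg (-0.019 to 0.087) and Trib3 at 0.1 mg/kg (-0.013 to 0.65). It did so too for the difference of effects of Trib2 between liver and prefrontal cortex (-0.096 to 0.15), Trib3 between liver and striatum (-0.45 to 0.17) and Trib1 between striatum and prefrontal cortex (-0.35 to 0.14). Prefrontal cortex Trib2 between 6 and 0.1 mg/kg ranged from -0.66 to -0.42, and vehicle Trib1 between striatum and prefrontal cortex from -0.75 to -0.25; each passed in 1 of these fits. The count of 6 liver list genes ranged from 0 to 13. It was 13 with DESeq2, which called 1138 of 12968 liver genes at 6 mg/kg. With the compared groups alone it was 1, and with the GC slope or animals 7 and 8 alone it was 0. It was also 0 with the clock index, which is built from the list genes Dbp and Arntl. In the prefrontal cortex the count was 1 with the GC slope. The causes were not tested.

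Animal numbers recur across tissues, and 2 of 20 pairs of liver and prefrontal cortex libraries, 2 of 20 of liver and striatum, and 12 of 21 of striatum and prefrontal cortex deviated together with a correlation over 0.1. In the same order, 4 of 20, 8 of 20 and 11 of 21 libraries correlated best with their own number among libraries of the same dose. The count due to chance was not computed. The last count is a hint of pairing between the brain regions from the data. Not every pair passed and no label states it, so the pairing was not used. With the replicate block no call changed: vehicle Trib3 was 4.56 higher on the log2 scale in liver than in prefrontal cortex, and vehicle Trib1 differed by -0.53 between striatum and prefrontal cortex (edgeR adjusted p = 0.130). Depth limits Trib3 in the brain, with 3 to 25 counts a library.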
